A study of Mus musculus with 4 samples.

Results

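Vascular smooth muscle cells, the contractile cells of the wall of arteries, arterioles and veins, were examined in 4 single-cell RNA libraries of the mouse submandibular gland. They were chosen by raw counts of unique molecular identifiers (UMIs, each standing for 1 captured RNA molecule). A cell needed at least 2 UMIs of Myh11, the smooth muscle myosin heavy chain, and at least 5 of Acta2, smooth muscle actin. It could hold no more than 1 UMI of the endothelial genes Pecam1 and Cdh5 together, and none of the fibroblast gene Pdgfra, the leukocyte gene Ptprc or the basal keratins Krt5 and Krt14. The keratins leave out the myoepithelial cells, which also contract but belong to the secretory epithelium. The rule found 558 smooth muscle cells among 36685 cells (1.52%). They numbered 192 and 225 in the first and the second deligated library, and 65 and 76 in the first and the second homeostatic library.

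All mice were female C57BL6/J. In the deligated group, aged 14 weeks, the ducts had been clipped shut for 14 days and then opened again for 5 days before collection. The homeostatic group, aged 12 weeks, had not been operated on, so age differed together with surgery. Magnetic beads against EpCAM and Ter119 were used to deplete epithelial and red blood cells, and shares below are shares of the cells left after that step. The labels speak of 2 glands and do not say how many mice gave a library, and the protocols name sublingual glands as well. The p-values therefore measure the spread between these libraries, which may be technical.

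Smooth muscle cells set the diameter of a vessel. Calcium entering through voltage-gated channels or released from stores activates myosin light chain kinase, encoded by Mylk, and myosin then pulls on actin, while nitric oxide and its messenger cGMP relax the cell. The contractile genes are switched on by serum response factor together with its cofactor myocardin, through a DNA element called the CArG box. In injured vessels these cells are known to shift from a contractile to a matrix-producing, proliferating state, and pericytes, their relatives on capillaries, share many of their genes.

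The label was checked on genes outside the rule. Tagln (chr9:45929619-45936058 on GRCm38), an actin-binding protein of the contractile apparatus, stood at 8015 and 7462 CPM in the deligated and 9327 and 7987 in the homeostatic libraries, against 117 to 192 in the pericytes of the same libraries. CPM are the UMIs of a gene per 1000000 UMIs, summed over the cells of that type in a library. Cnn1, calponin, and Myocd, myocardin, had 179.5, 95.1, 171 and 111 and 66.3, 66.6, 162 and 172 CPM in the 4 libraries and no UMI in pericytes of any library. Neither gene had been used to choose the cells, and most single cells held no Cnn1 UMI, with 30.2%, 19.6%, 32.3% and 23.7% holding one. The pericytes were themselves chosen for at most 1 Myh11 and 4 Acta2 UMIs. Low levels of other contractile genes in them are therefore in part set by that choice. Cells with at least 2000 UMIs were also thinned to that number, and the others left out. After that, 95.8 to 100% of the smooth muscle cells held a Tagln UMI, against 0.563 to 2.92% of endothelial cells. For Mylk, the myosin light chain kinase, the shares were 87.3 to 91.5% and 3.26 to 5.32%. The pericyte genes Kcnj8 and Abcc9, a potassium channel and its sulfonylurea receptor, were at 143, 115, 77.2 and 61.3 and at 273, 201, 154 and 111 CPM. In pericytes they reached 2558 to 2767 and 2282 to 3203. Other genes of the pericyte list lay closer to the pericyte level, among them Rgs5 at 6051, 8336, 5124 and 5715 CPM against 6850, 9352, 5151 and 5267, and Notch3 at 895, 992, 1033 and 1154 against 779.9, 957, 1020 and 1309. The 9 genes of that list summed to 8871 to 12461 CPM in smooth muscle cells and 16456 to 20547 in pericytes, and none was at 0. Of the myoepithelial genes not in the rule, Oxtr had no UMI in any library, and Krt17 and Trp63 did not exceed 2.41 CPM. Cnn1 is on that list as well as on the smooth muscle list, so its levels given above do not tell these cell types apart.

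The rule genes themselves describe the choice and support nothing. The median cell held 27.5, 19, 25 and 24.5 UMIs of Myh11 and 51.5, 40, 60 and 53.5 of Acta2 in deligated 1, deligated 2, homeostatic 1 and homeostatic 2, far from the thresholds. Just inside the Myh11 threshold, at 2 UMIs, lay 8, 9, 0 and 3 cells, and just outside, at 1 UMI, 6, 4, 4 and 3. At 5 UMIs of Acta2 there were 7, 8, 1 and 3 cells and at 4 UMIs 3, 3, 4 and 0. Few cells were therefore decided by a single molecule. A larger number of cells rich in both genes was left out for transcripts of other cell types. Of 225, 321, 97 and 115 such cells, keratin UMIs removed 8, 5, 15 and 29, endothelial UMIs 16, 43, 15 and 8, and fibroblast or leukocyte UMIs 12, 56, 3 and 6.

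Depth and other RNA differed between the libraries in ways that touch the results. The smooth muscle cells had a median of 8059 and 5996 UMIs in the deligated and 6000 and 6320.5 in the homeostatic libraries, and their sums held 1643185, 1472270, 414500 and 505316 UMIs. The summed level of the duct and acinar marker list in them was 112 and 337 CPM in the deligated and 1826 and 1605 in the homeostatic libraries, with 11, 6, 4 and 3 of its 17 genes at 0. Over all cells of the libraries it was 193 and 428 CPM in the deligated and 14841 and 14769.7 in the homeostatic libraries. The erythroid list summed to 32.9 and 9764 CPM in the deligated and 104 and 71.2 in the homeostatic libraries, with at most 1 of its 5 genes at 0. Only in deligated 2 did smooth muscle cells hold more than 10 haemoglobin UMIs, 3 cells with up to 7413. Libraries shared 14 to 54 cell barcodes pairwise, none of them of smooth muscle cells. Per the file headers the deligated libraries were made with Cell Ranger 6.0.1 and the homeostatic with 7.0.0, so that the effect of the software and that of deligation cannot be told apart.

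Smooth muscle cells made up a larger share of the deligated than of the homeostatic libraries. The shares, with exact Clopper-Pearson 95% intervals that cover counting error only, were 4.25% (3.68 to 4.88) and 2.68% (2.35 to 3.05) in the deligated libraries. In the homeostatic libraries they were 0.555% (0.429 to 0.707) and 0.6299% (0.497 to 0.788). The group means were 3.46% ± 1.11 (SD, n = 2) and 0.592% ± 0.05302 (SD, n = 2), a ratio of 5.85. Both deligated libraries lay above both homeostatic libraries. The difference was not tested. An exact permutation test of 2 against 2 libraries gives no two-sided p below 0.333. A fixed number of UMIs is easier to reach in deeper cells, so the rule was also applied, with thresholds scaled, to cells thinned to 2000 UMIs. Cells with fewer UMIs were left out there. The number of cells thereby fell from 4521, 8386, 11713 and 12065 to 4331, 7866, 7429 and 7407, deligated libraries first. Smooth muscle cells numbered 188, 238, 67 and 75. The shares were then 4.34% and 3.03% against 0.902% and 1.01%, and the ratio fell to 3.85. That fall does not show the effect of depth on the rule alone, since shallow cells of other types were lost. Pericytes, chosen by Rgs5 and Pdgfrb with few Myh11 and Acta2 UMIs, were also a larger share there, 1.57% and 1.502% against 0.342% and 0.265%. More cells of a type and fewer cells of the others in the suspension cannot be told apart from such shares.

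**Figure D1:**
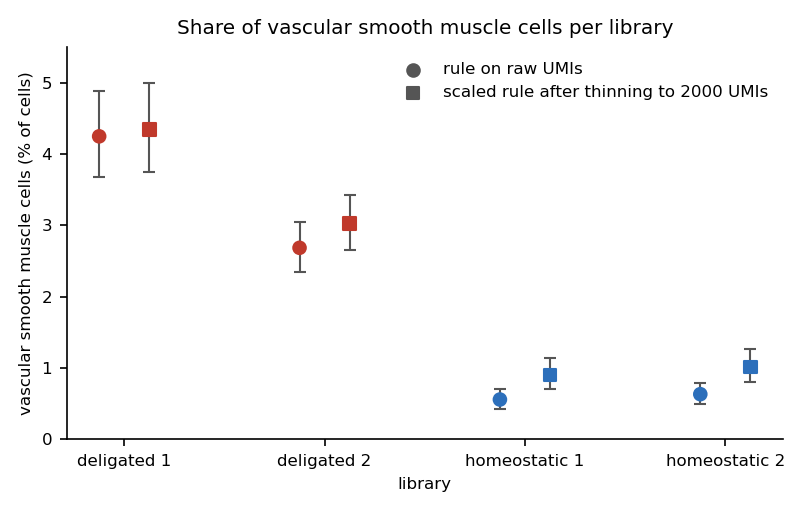
Share of vascular smooth muscle cells in each library, in percent of the cells that passed the filters. Circles show the rule on raw UMIs. Squares show the scaled rule after thinning to 2000 UMIs per cell, in percent of cells with at least that number. Bars are the exact 95% intervals, which cover counting error only. The deligated libraries lie at 2.68% or more under both rules and the homeostatic libraries at 1.01% or less.

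Across the transcriptome, far more genes fell than rose in smooth muscle cells of deligated glands, and most of those that fell are genes with very long introns. UMIs were summed over the cells of each library and compared with edgeR's quasi-likelihood test, with Benjamini-Hochberg adjustment over 8488 genes and a threshold of 0.05. The test called 616 genes (7.26%), 124 higher (1.46%) and 492 lower (5.8%), and the median log2 fold change was -0.0073. Both libraries of one group lay above both of the other in 48.9% of the genes tested, so that lack of overlap alone says little. Among 1109 genes whose introns exceed 100 kb in sum, 360 passed (32.5%), 358 of them lower, with a median of -0.63. Among 2692 genes with at most 10 kb of intron, 114 were called (4.23%), 81 higher and 33 lower. Genes with over 100 kb of intron took up 8.41% and 8.13% of the UMIs of the deligated and 12.6% and 13.7% of those of the homeostatic smooth muscle cells. Spearman's rho between fold change and intron length was -0.38 over 8486 genes, which are not independent replicates. Reads from unspliced RNA count only where introns are counted, and whether the software did so is not given in the sources used here. A second fit removed the smooth trend of fold change on intron length, and called 336 genes (3.96%), 120 higher and 216 lower (2.54%). Results for genes with long introns are therefore given with both fits.

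**Figure D2:**
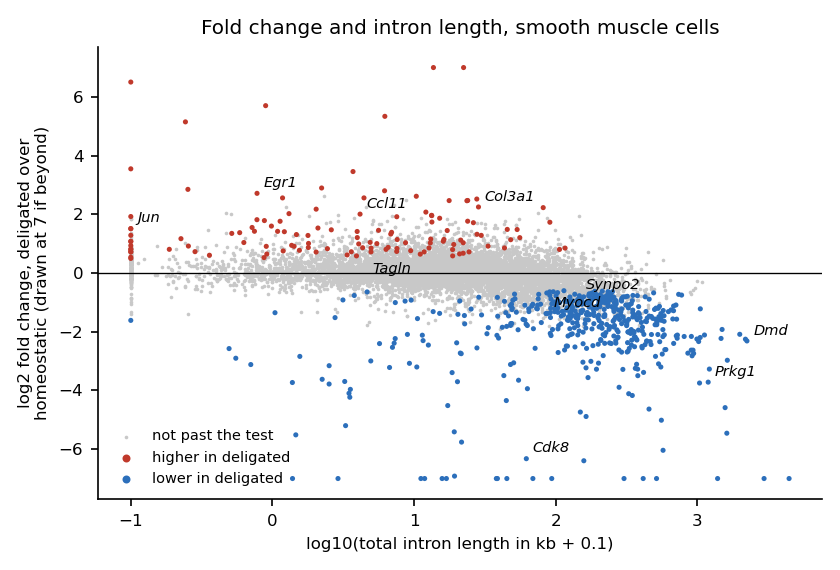
Fold change of each tested gene in vascular smooth muscle cells (log2, deligated over homeostatic, drawn at 7 if beyond) against its total intron length (log10 of kb + 0.1); coloured points passed the edgeR test. Lower calls crowd at the right, where 358 of 1109 genes with introns above 100 kb passed as lower.

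The contractile apparatus gave 3 calls, all lower. All 30 genes of a list of myosin, actin and their partners, which holds the rule genes Myh11 and Acta2, were tested, none was higher and 3 were lower (background 7.26% called), with a median log2 fold change of -0.10. Tagln, given above, overlapped between the groups (edgeR, log2 fold change of -0.21 with SE 0.12, adjusted p 0.376). Tpm2, the beta tropomyosin that controls access of myosin to actin, was at 4393 and 4397 CPM in the deligated and 5990.4 and 5157 in the homeostatic libraries. The homeostatic libraries lay above the deligated ones, but the difference did not pass (edgeR, log2 fold change of -0.39 with SE 0.13, adjusted p 0.0677). Myl6, an essential myosin light chain, was at 4252 and 4650.0 CPM in the deligated and 5571 and 4918 in the homeostatic libraries (log2 fold change of -0.29 with SE 0.12, adjusted p 0.214). Mylk, at 2216, 1935, 1865 and 1983 CPM, and Cnn1 overlapped between the groups. Among the genes that fell were Synpo2, an actin-bundling protein, and Itga8, the integrin alpha 8 subunit, with log2 fold changes of -0.77 and -0.62 (edgeR adjusted p 0.0157 and 0.0336). They have 147 and 188 kb of intron. With the intron trend removed, neither passed (adjusted p 0.588 and 0.982), and the list then held 2 higher genes, Mylk and Cald1, and 2 lower ones, Tpm2 and Myl6. Without homeostatic 2 or deligated 2 Synpo2 lost its call, and Itga8 lost its call whichever library was left out.

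The CArG box was searched for, by its consensus and on both strands, in the 250 bases before the start of each gene with a promoter entry in RefSeq (GRCm38.p6). It was present in 4 of 26 matched contractile genes (15.4%), namely Myl9, Myl6, Vcl and Cnn2, and in 439 of 27025 genes overall (1.62%). Among 25 matched immediate early genes, 2 held it (8%), Egr2 and Zfp36. A match describes the letters and not a bound site. Printed 5′ to 3′ in the direction of the gene, with the box in capitals, are stretches before Myl9 (a myosin light chain, chr2:156775253-156775342, plus strand), Vcl (vinculin, chr14:20929148-20929210, plus strand), Zfp36 (an RNA-destabilizing protein, chr7:28379247-28379336, minus strand) and Srf (serum response factor itself, chr17:46556185-46556294, minus strand, with 2 boxes). They are shown because the first pair belongs to the contractile list and did not pass the test, whereas Zfp36 rose.
Myl9: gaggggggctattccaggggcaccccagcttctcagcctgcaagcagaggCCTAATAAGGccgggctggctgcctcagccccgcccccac
Vcl: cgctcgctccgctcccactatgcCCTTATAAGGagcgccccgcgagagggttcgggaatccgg
Zfp36: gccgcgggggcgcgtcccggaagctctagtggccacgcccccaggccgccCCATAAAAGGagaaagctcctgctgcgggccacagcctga
Srf: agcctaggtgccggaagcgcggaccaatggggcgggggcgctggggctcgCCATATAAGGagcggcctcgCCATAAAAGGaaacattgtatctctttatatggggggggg
Myl9 stood at 3929.6 and 4302 CPM in the deligated and 4253 and 3989.6 in the homeostatic libraries (log2 fold change of -0.055 with SE 0.13, adjusted p 0.884) and Vcl at 333, 309.7, 405 and 358 (log2 fold change of -0.30 with SE 0.17, adjusted p 0.384), neither past the edgeR test. Zfp36 rose from 43.4 and 55.4 to 88.9 and 211 CPM (log2 fold change of 1.51 with SE 0.34, adjusted p 0.00791). The groups did not overlap for Zfp36, and the predicted gene Gm44710 lies on its opposite strand. Srf was at 41.4, 43.5, 48.3 and 47.5 CPM and did not pass (edgeR, log2 fold change of -0.23 with SE 0.27, adjusted p 0.739).

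Myocd (chr11:65176561-65269989), the cofactor that drives contractile genes with serum response factor, fell. Its level was 66.3 and 66.6 CPM in the deligated and 162 and 172 in the homeostatic libraries. Both homeostatic libraries lay well above both deligated ones, and the deligated pair were nearly equal (edgeR, log2 fold change of -1.38 with SE 0.20, adjusted p 9.18e-05). The gene has 87.00 kb of intron, and with the intron trend removed the log2 fold change was -1.10 (adjusted p 0.00194). Of 1670 genes with 50 to 150 kb of intron, 119 were called (7.13%), 113 of them lower, with a median of -0.20. The call held in 17 of 18 alternatives and was lost under a stricter cell filter. After thinning, 7.94% and 11.8% of deligated and 28.6% and 23.3% of homeostatic smooth muscle cells held a Myocd UMI, against at most 0.216% of endothelial cells. Hes1, a repressor induced by Notch receptors, was at 459 and 723 CPM in the deligated and 193 and 261 in the homeostatic libraries. It rose, with no overlap (edgeR, log2 fold change of 1.31 with SE 0.21, adjusted p 0.000356), and kept its call in 18 of 18 alternatives. Klf2, a flow-responsive transcription factor, rose from 48.3 and 47.5 to 129.6 and 216 CPM (log2 fold change of 1.79 with SE 0.27, adjusted p 0.000169), and lost its call under the stricter cell filter and after thinning. Of the list of smooth muscle transcription factors and Notch pathway genes, 27 of 29 were tested, and 2 were higher and 1 was lower, namely these 3, with a median of 0.14, a count not far from the 7.26% of all genes called. Notch3, the Notch receptor of mural cells, at 895, 992, 1033 and 1154 CPM, did not pass (edgeR, log2 fold change of -0.27 with SE 0.15, adjusted p 0.392). Ebf1, at 829, 954, 989 and 1219 and with 381 kb of intron, did not pass either (log2 fold change of -0.37 with SE 0.16, adjusted p 0.227), and its sign turned with the intron trend removed (0.62, adjusted p 0.0352).

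The list of calcium entry and cGMP signalling held 7 lower genes, all with more than 100 kb of intron, a class in which 32.5% of all genes were called. Prkg1 (chr19:30564489-31765033), the cGMP-dependent protein kinase that mediates relaxation by nitric oxide, was at 184 and 132 CPM in the deligated and 1788 and 2236 in the homeostatic libraries (edgeR, log2 fold change of -3.72 with SE 0.20, adjusted p 3.41e-10). The homeostatic levels were many times the deligated ones in both libraries. With 1189.7 kb of intron, its log2 fold change was -2.08 with the intron trend removed (adjusted p 9.17e-07). Pericytes of the same libraries had 142, 100.5, 1912 and 2299 CPM, lower in the deligated libraries too. Cacnb2 and Cacna1c, subunits of the L-type calcium channel, were at 114, 68.6, 717 and 811 and at 143, 137, 702 and 944 CPM. They fell by 3.11 and 2.61 on the log2 scale (edgeR adjusted p 1.58e-08 and 1.62e-08), and by 2.13 and 1.38 with the trend removed (adjusted p 3.42e-06 and 0.000104). Both held in 18 of 18 alternatives, as did Prkg1. The large-conductance potassium channel Kcnma1, the ryanodine receptor Ryr2, the phosphodiesterase Pde3a and the inositol trisphosphate receptor Itpr1 also fell, by 2.14, 2.09, 0.76 and 0.79 (edgeR adjusted p 5.91e-06, 0.000605, 0.0037 and 0.0064). None of these 4 passed with the trend removed, and without homeostatic 2 Pde3a and Itpr1 lost their calls. In all, 29 of 30 listed genes were tested, 2 were higher and 7 lower, with a median of -0.15, and with the trend removed 1 was higher and 3 were lower.

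Calm2, Atp2a2 and Gucy1a1, also abundant on this list, did not pass the test. Calm2, a calmodulin gene, was at 1461, 1272, 1221 and 1077 CPM, and the calcium pump Atp2a2 at 1201, 1132, 1199 and 1185. Gucy1a1, a subunit of the receptor for nitric oxide, was at 1411 and 1168 CPM in the deligated and 1165 and 1288 in the homeostatic libraries, and the groups overlapped (edgeR, log2 fold change of 0.022 with SE 0.16, adjusted p 0.969). The higher genes were Kcnj8 and Abcc9, the pair that forms a potassium channel sensitive to ATP and marks pericytes, with log2 fold changes of 0.86 and 0.80 (edgeR adjusted p 0.0249 and 0.0259), both lost without deligated 1 and without homeostatic 2. Of the vasoactive receptors, 19 of 30 were tested, none was higher and 1 was lower, with a median of 0.16, a count near the 5.8% of all genes that were lower. That gene was Adra1a, the alpha-1A adrenergic receptor through which sympathetic nerves constrict vessels. Its level was 10.3 and 17.7 CPM in the deligated and 50.7 and 63.3 in the homeostatic libraries (edgeR, log2 fold change of -2.10 with SE 0.34, adjusted p 0.000397), and the log2 fold change was -1.65 with the intron trend removed (adjusted p 0.00665). The endothelin receptor Ednra, at 347, 303, 374 and 435, the neuropeptide Y receptor Npy1r, at 348, 256, 207 and 255, and Rgs5, a brake on such receptors, at 6051, 8336, 5124 and 5715 CPM, did not pass.

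Of the immediate early genes tested, 13 of 24 rose in smooth muscle cells of deligated glands. These genes are transcribed within minutes of a stimulus without new protein synthesis, and are also known to respond to the enzymatic dissociation of tissue. Of 30 listed, 24 were tested, 13 were higher and none lower, with a median of 0.99. Of all 871 genes with at most 2 kb of intron, to which most of these belong, 60 were called (6.89%), 51 of them higher. Egr1, a zinc finger transcription factor, was at 176 and 225 CPM in the deligated and 19.3 and 37.6 in the homeostatic libraries, and the groups lay far apart (edgeR, log2 fold change of 2.72 with SE 0.27, adjusted p 1.31e-06). Fos (chr12:85473890-85477273) and Junb, partners in the AP-1 complex, were at 780.2, 1517, 224 and 418 and at 325, 657, 62.7 and 141 CPM (log2 fold change of 1.76 with SE 0.27, adjusted p 0.00019, and log2 fold change of 2.18 with SE 0.31, adjusted p 8.68e-05). In both, deligated 2 was the highest library and homeostatic 1 the lowest. Jun, another AP-1 partner, was at 421 and 473 CPM in the deligated and 123 and 176 in the homeostatic libraries (edgeR, log2 fold change of 1.51 with SE 0.19, adjusted p 3e-05). Btg2, an antiproliferative protein, Ier2, and the feedback inhibitors Socs3, Zfp36 and Dusp1 rose by 2.02, 1.93, 2.56, 1.51 and 1.48 on the log2 scale (edgeR adjusted p 0.000181, 0.00284, 0.00223, 0.00791 and 0.00136). Nr4a1, Fosb, Btg1 and Rhob also rose, by 1.45, 1.41, 1.04 and 0.94 (adjusted p 0.019, 0.00244, 0.0015 and 0.00387), with Nr4a1 lost without deligated 2 and Btg1 without homeostatic 1. Jund, at 686, 748, 559.7 and 532, did not pass, and nor did Atf3, at 35.9, 82.9, 28.95 and 63.3 CPM. The count was again 13 higher and none lower with the intron trend removed and without the cells with Kcnj8 or Abcc9 UMIs, whereas DESeq2 called 10 higher and none lower, with Fos, Junb and Nr4a1 lost (adjusted p 0.128, 0.0804 and 0.227). The stricter cell filter gave 7 of 18 tested and thinning 8 of 17, again none lower, and Ier2, Zfp36, Fosb and Nr4a1 lost their calls under both.

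Of these genes, some were also higher in other cells of the deligated libraries and others overlapped there. After thinning, 19.05% and 22.7% of deligated against 6.35% and 4.11% of homeostatic smooth muscle cells held an Egr1 UMI. In endothelial cells the shares were 32.5% and 35.5% against 18.9% and 19.3%, higher in the deligated libraries there too, as were those of Fos, at 44.9% and 62.3% against 43.2% and 42.3%, Ier2, at 35% and 43.1% against 28.6% and 27.2%, Btg1, at 63.6% and 57.8% against 35.2% and 37.1%, and Zfp36, at 21.8% and 40.5% against 19.1% and 17.3%. Jun, at 69.4%, 79.1%, 73.4% and 70.6% of endothelial cells, Junb, at 47.0%, 64.8%, 47.6% and 44.4%, and Btg2, at 31.2%, 44.7%, 31.2% and 28.7%, overlapped between the groups. In pericytes, Fos was at 148, 380.0, 110.5 and 53.2 and Junb at 159.6, 259.9, 51 and 42.6 CPM, and the difference of their fold changes from those in smooth muscle cells did not pass (edgeR interaction, adjusted p 0.98 and 0.999), which does not show that the effects were alike. After thinning, 15.9%, 22.8%, 19.4% and 20.8% of pericytes held a Fos UMI, with overlap. Several of these genes overlap a gene on the opposite strand, among them Junb (Prdx2), Jun (Junos) and Dusp1 (Ergic1), and whether counting used the strand is not given in the sources used here. Rasd1, a Ras-related protein induced by glucocorticoids, was not on the list and rose from 12.1 and 15.8 to 31.04 and 187 CPM (log2 fold change of 2.85 with SE 0.73, adjusted p 0.0184). Deligated 2 decided that value, and the call was lost without it and in DESeq2.

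**Figure D3:**
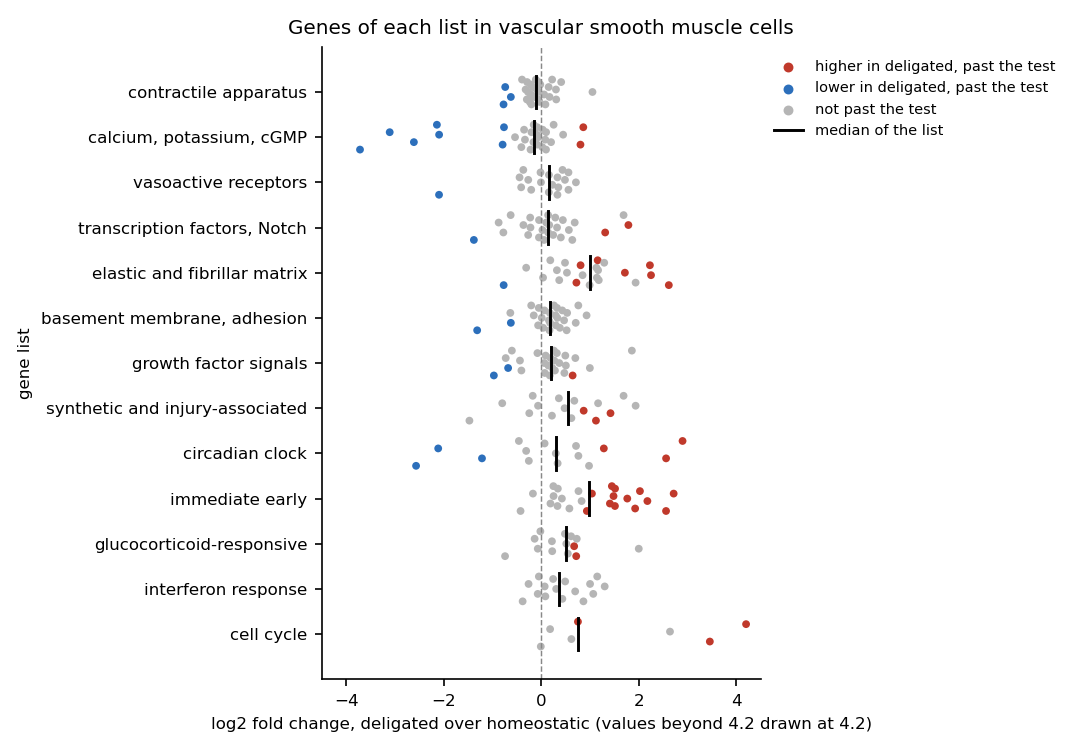
Fold change of every tested gene of 13 lists in vascular smooth muscle cells (log2, deligated over homeostatic; values beyond 4.2 are drawn at 4.2); coloured points passed the edgeR test and black bars are medians. The immediate early list holds 13 higher genes and a median of 0.99, and the contractile list a median of -0.10.

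Transcripts of the fibrillar collagen chains Col3a1 and Col1a1 rose, and less firmly those of Col1a2. Of a list of 30 genes of elastic fibres and fibrillar matrix, 23 were tested, 7 were higher and 1 was lower, with a median of 0.99, where 1.46% of all genes were higher and 5.8% lower. The higher calls were 2 in DESeq2, where only Col3a1 and Col1a1 of those named here were kept, 3 under the stricter cell filter and 3 after thinning. Col3a1 (chr1:45311538-45349706), the chain of type III collagen of vessel walls, was at 402 and 238 CPM in the deligated and 60.3 and 69.3 in the homeostatic libraries (edgeR, log2 fold change of 2.25 with SE 0.27, adjusted p 1.06e-05). The lowest deligated level was more than 3 times the highest homeostatic one. Col1a1, the main chain of type I collagen, was at 71.2 and 39.4 CPM in the deligated and 7.24 and 9.89 in the homeostatic libraries, on only 3 and 5 UMIs in the homeostatic libraries (log2 fold change of 2.62 with SE 0.48, adjusted p 0.00141). Both calls held in every alternative in which they could be tested, 18 for Col3a1 and 17 for Col1a1. Col6a1, a beaded-filament collagen, the proteoglycan Bgn and Col1a2 rose less, by 1.16, 0.81 and 0.72 (edgeR adjusted p 0.00476, 0.0132 and 0.0356). Without deligated 1 Bgn and Col1a2 lost their calls, as did Bgn without homeostatic 2 and Col1a2 without homeostatic 1. Ltbp4, which tethers latent TGF-beta, and the crosslinking enzyme Loxl2 were the other higher genes, at under 60 CPM in every library (1.72 and 2.23), and Loxl2 lost its call without deligated 1 or homeostatic 2. Ltbp1, with 376 kb of intron, was the lower one (-0.77, adjusted p 0.0178), and its sign turned with the intron trend removed (0.21). It kept its call only without deligated 1 among the libraries left out in turn. Elastin, Eln, the elastic core of arterial walls, was at 175 and 141 CPM in the deligated and 109 and 135 in the homeostatic libraries and did not pass (edgeR, log2 fold change of 0.32 with SE 0.21, adjusted p 0.459).

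Col3a1 and Col1a1 transcripts lay in few cells and those of Col1a2 in many. The tenth of the cells richest in Col3a1 held 70.3%, 79.4%, 72% and 82.9% of its UMIs in the 4 libraries. For Col1a1 the richest cells, chosen likewise, held 75.2% and 84.5% in the deligated libraries, and for Col1a2 38.9%, 41.4%, 42.9% and 40.4%, with 73.4%, 64%, 46.2% and 59.2% of the cells holding a Col1a2 UMI. After thinning, 26.5% and 15% of deligated and 11.1% and 8.22% of homeostatic smooth muscle cells had a Col3a1 UMI, against 2.17% and 5.796%, and 0.415% and 0.141%, of endothelial cells. The fibroblast marker list, which includes Col1a1, Col1a2 and Col3a1, summed to 1309 and 1300.0 CPM in the deligated and 663 and 758 in the homeostatic smooth muscle cells, with 4, 2, 5 and 4 of its 10 genes at 0. Over all cells it was 7957 and 8815 CPM in the deligated and 2150.3 and 2205 in the homeostatic libraries. The fibroblast genes Lum, Dcn and Clec3b were at 2.43, 10.2, 0 and 1.98, at 17.04, 50.9, 14.5 and 11.9 and at 0, 2.72, 0 and 0 CPM in smooth muscle cells. Their part in the result was not tested. Without the cells that held a Kcnj8 or Abcc9 UMI, an alternative chosen after seeing the data that left 87, 145, 43 and 52 cells, 15 genes of the list were tested, 2 were higher and none lower. Those were Col1a1 (3.68, edgeR adjusted p 0.0296) and Col3a1 (1.82, adjusted p 0.0472), and the median fell to 0.61. Over all alternatives the adjusted p of Col3a1 went from 8.28e-27 to 0.0472, and that of Col1a1 from 5.28e-12 to 0.0296.

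Of the wider set of genes known from injured, matrix-producing smooth muscle, 3 passed, all higher. Of 30 listed, 16 were tested, 3 were higher and none lower, with a median of 0.55, where 1.46% of all genes tested were higher. Cyr61, a matrix protein induced by stretch, was at 100.4 and 98.5 CPM in the deligated and 28.95 and 41.6 in the homeostatic libraries and rose with no overlap (edgeR, log2 fold change of 1.42 with SE 0.26, adjusted p 0.00144). The adhesion protein Postn, at 108, 95.8, 72.4 and 21.8, and the calcium-binding S100a4, at 253, 159.6, 125 and 94.99 CPM, rose by 1.12 and 0.87 (edgeR adjusted p 0.0396 and 0.0314). Both lost their call without deligated 1 and without homeostatic 2. Mgp, which inhibits calcification of vessel walls, S100a6 and Nes did not pass, at 429.7, 465, 410.1 and 332, 1519.6, 1405, 1086 and 1112 and 197, 144, 106 and 109 CPM. DESeq2 called none of this list, with 6 genes at an unadjusted p under 0.05. After thinning none of 8 genes tested passed, and Cyr61 lost its call there too. Of 30 basement membrane and adhesion genes, 27 were tested and 2 were lower, Itga8 and the laminin chain Lama2 (-1.31, edgeR adjusted p 0.00121), both with over 100 kb of intron and neither past the test with the trend removed. In that second fit 3 other genes of the list passed, all higher, where 1.41% of all genes were higher. Of 32 growth factor and receptor genes, 26 were tested, 1 was higher and 2 were lower, with a median of 0.21, counts near the 1.46% and 5.8% of all genes. Igfbp5, a secreted binder of insulin-like growth factors, was at 1717 and 1623 CPM in the deligated and 1057 and 1007 in the homeostatic libraries and rose (edgeR, log2 fold change of 0.64 with SE 0.15, adjusted p 0.00944). Tgfbr3 and Bmpr1a, receptors of the TGF-beta family, fell by 0.97 and 0.68 (edgeR adjusted p 0.0051 and 0.0283). With the intron trend removed none of these 3 passed, with adjusted p of 0.057 for Igfbp5. Without deligated 1 or homeostatic 2 the calls of Igfbp5 and Bmpr1a were lost, and that of Bmpr1a also without deligated 2.

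Ccl11, eotaxin, a chemokine that attracts eosinophils, rose in smooth muscle cells, while its level in pericytes was lowest in a deligated library. It was at 110.2 and 89.7 CPM in the deligated and 26.5 and 21.8 in the homeostatic libraries (edgeR, log2 fold change of 2.01 with SE 0.29, adjusted p 0.000125), with no overlap. After thinning this call was lost (edgeR adjusted p 0.0872). Few cells carried the transcript. Deligated sub-clusters 4 and 6, described below, held 37.7% and 59.7% of the deligated UMIs, and homeostatic sub-cluster 3 held 95.5% of the homeostatic ones. These sub-clusters also carried pericyte genes. Pericytes had 307, 935, 960.5 and 841 CPM. The effects differed between the cell types (edgeR interaction, difference 2.60, SE 0.43, adjusted p 0.000371), with the interaction call lost without deligated 1 and after thinning. The homeostatic value rests on 11 UMIs in each library. Without the cells that held a Kcnj8 or Abcc9 UMI, Ccl11 did not pass the filter on low counts and was not tested.

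Clock genes moved in opposite directions. Nr1d1 (chr11:98767932-98775333), the repressor REV-ERB alpha that silences Arntl and Npas2, was at 61.5 and 86.9 CPM in the deligated and 12.1 and 11.9 in the homeostatic libraries. It rose with no overlap (edgeR, log2 fold change of 2.56 with SE 0.37, adjusted p 9.86e-05). The output factor Dbp, at 40.2, 45.5, 2.41 and 7.92 CPM, and Nr1d2, at 48.1, 50.9, 14.5 and 23.7, rose too (log2 fold change 2.90 and 1.28, edgeR adjusted p 0.000575 and 0.0225). Npas2, a partner of Arntl in the activating arm, was at 7.91 and 15.6 CPM in the deligated and 45.8 and 85.1 in the homeostatic libraries (edgeR, log2 fold change of -2.57 with SE 0.38, adjusted p 0.000125). Arntl and the activator Rora fell by 1.22 and 2.11 (edgeR adjusted p 0.0305 and 6.01e-07). With 165, 99.1 and 721 kb of intron, Npas2, Arntl and Rora had adjusted p of 0.00326, 0.181 and 0.0347 with the intron trend removed. Nr1d2 and Arntl lost their calls without deligated 1 and without homeostatic 1. After thinning, Nr1d1 and Nr1d2 lost theirs, and of 7 genes of the list tested then, none was higher and 1 was lower. The list had 22 genes, 15 tested, 3 higher and 3 lower, with a median of 0.30, where 1.46% of all genes were higher and 5.8% lower. Clock, at 89.5, 85.6, 123 and 81.1, and the kinases Csnk1d and Csnk1e, at 51.1, 68.6, 33.8 and 55.4 and 102, 101, 84.4 and 75.2 CPM, did not pass. In pericytes Nr1d1 was at 90.3, 131, 51 and 63.8 and Dbp at 108, 120.1, 8.50 and 10.6. The hour of collection of the glands is not given in the sources used here, so hour and group cannot be told apart. Nr1d1 overlaps Thra, and Dbp overlaps Sphk2, on the opposite strand.

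The glucocorticoid list gave 2 calls and the interferon list none. Of 20 glucocorticoid-responsive genes, 14 were tested, with a median of 0.50. The metallothionein Mt1 and the transcription factor Klf9, 2 of the 14, were higher, where 1.46% of all genes tested were. Mt1 was at 162, 199, 106 and 105 and Klf9 at 473, 454, 275 and 285 CPM (log2 fold change 0.72 and 0.67, edgeR adjusted p 0.0298 and 0.0157). Both lost their call without homeostatic 1 or homeostatic 2 and with the intron trend removed, and so did Mt1 without deligated 2 and Klf9 without deligated 1. Of 20 interferon response genes, 16 were tested and none passed in edgeR, with 3 at an unadjusted p under 0.05 and a median of 0.37. DESeq2 called none, with 1 at an unadjusted p under 0.05. Ifitm3, a membrane protein that blocks virus entry, was at 983 and 990.3 CPM in the deligated and 654 and 754 in the homeostatic libraries, and the deligated libraries lay above the homeostatic ones without passing (edgeR, log2 fold change of 0.43 with SE 0.16, adjusted p 0.128).

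Most Top2a and Stmn1 transcripts lay in 2 cells. Of 20 listed genes, 7 were tested and 3 were higher in edgeR, Top2a, Stmn1 and Hmgb2, where 1.46% of all genes were. Top2a, the DNA topoisomerase of dividing cells, had 105 and 36 UMIs in the deligated libraries and none in the homeostatic, at least 13.9-fold higher with the homeostatic sum set to 3 UMIs over the group. A single cell held 103 of the 105, and another held all 36. Without deligated 1 the calls of Top2a and Hmgb2 were lost, and that of Hmgb2 also without homeostatic 2. Stmn1, a microtubule regulator, had 164 and 73 UMIs in the deligated libraries, of which single cells held 149 and 43. Hmgb2, a chromatin protein, was spread more widely, with 220 and 219 UMIs in 94 and 123 deligated cells, of which single cells held 71 and 26. The first of these cells carried 43671 UMIs in all, the most of any smooth muscle cell, and no smooth muscle cell of that library was called a doublet. Over 10 genes of cycling, these 2 cells had 474 and 101 UMIs and no other smooth muscle cell had more than 2. Without them, an alternative chosen after seeing the data, 3 genes of the list could be tested and none passed, also at an unadjusted p under 0.05. In all, 1 of 192 and 1 of 225 deligated cells were cycling and 0 of 65 and 0 of 76 homeostatic cells, which allows shares of up to 4.62% and 3.95% there (counting error only).

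The largest falls among genes with at most 10 kb of intron were mostly in products of the secretory epithelium. Klk1, a kallikrein protease of ducts, was at 4.26 and 42.1 CPM in the deligated and 1185 and 425 in the homeostatic libraries (edgeR, log2 fold change of -5.20 with SE 0.52, adjusted p 1.28e-06). Dcpp3, a demilune cell protein, had no UMI in the deligated libraries and was at 72.4 and 55.4 CPM in the homeostatic, at least 65.5-fold lower with the deligated sum set to 3 UMIs over the group. Klk1b26, Pip, Fxyd2, Scgb2b27, Scgb2b26 and Scgb1b27 fell by 4.23, 3.62, 3.22, 2.90, 2.84 and 2.57 on the log2 scale, and the antigen-presentation gene Cd74 by 2.39. A single cell held up to 56.8%, 52.3% and 100% of a library's UMIs of Klk1, Fxyd2 and Klk1b26, in the library where that share was largest. In deligated 2 a single cell held 95.7%, 94.9%, 93.9% and 95.1% of the UMIs of Pip, Scgb2b27, Scgb2b26 and Scgb1b27, and these 4 and Mucl2 lost their calls in DESeq2. Without deligated 1 the calls of Scgb2b26, Scgb1b27 and Cd74 were lost, and that of Cd74 also without homeostatic 2, in cells without UMIs of the epithelial genes Epcam, Krt8 and Krt18 and under the rule after thinning. Single cells held 9 of the 12 and 26 of the 37 Cd74 UMIs of the homeostatic libraries. Mucl2, a mucin-like secretory protein, was at 34.7 and 1249.8 CPM in the deligated and 3440.3 and 7324 in the homeostatic libraries (edgeR, log2 fold change of -3.16 with SE 0.77, adjusted p 0.0136), and 1 cell of deligated 2 held 92.3% of its UMIs there. After thinning, 98.4% and 100% of the homeostatic smooth muscle cells held a Mucl2 UMI, against 99.2% and 99.5% of endothelial cells, so that nearly every cell of both types held one. The kallikrein and secretoglobin genes have near-identical copies between which the authors' counting could split reads. These values, apart from that of Cd74, moved with the duct and acinar list given above, which includes Klk1 itself. Over all cells that list was at 193 and 428 against 14841 and 14769.7 CPM. Cd74 is on the macrophage list, which over all cells was at 530 and 820 CPM in the deligated and 5522 and 5205 in the homeostatic libraries. The part of either list in these values was not tested.

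Over all intron lengths the largest falls were in genes listed at 0 in both deligated libraries. Gm20388 and Gm26561, long predicted transcripts, and Il31ra, the receptor of interleukin 31, had 102, 96 and 75 UMIs in the homeostatic smooth muscle cells and none in the deligated, at least 115-, 108- and 84.7-fold lower. Pericytes had none in the deligated libraries either, and after thinning the 3 genes were seen in at most 0.036% of deligated endothelial cells, against 14.3 to 34.8% of homeostatic ones. Gm20388 has 4431 kb of intron and spans many genes on the opposite strand. Cdk8 (chr5:146231230-146302874), a kinase of the Mediator complex, was at 31.04 and 22.4 CPM in the deligated and 1848 and 2321 in the homeostatic libraries with 61.8 kb of intron, and pericytes had 87.3, 69.9, 1980.5 and 2756. Dmd, dystrophin, which links actin to the membrane, has 2233 kb of intron and was at 259 and 253 CPM in the deligated and 1179.7 and 1274 in the homeostatic libraries (edgeR, log2 fold change of -2.31 with SE 0.17, adjusted p 1.58e-08). With the intron trend removed its fold change was -0.31 (adjusted p 0.376).

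Most UMIs of Cnn1 and most of Col3a1 lay in different groups of smooth muscle cells in both conditions. The cells of each condition were clustered separately, without the rule genes, into 6 deligated and 4 homeostatic sub-clusters, described here by number and leading genes and without a test. In deligated sub-cluster 5 (48 cells, 20 and 28 by library), led by Dpysl3, Timp4 and Cnn1, lay 61.8% of the Cnn1 UMIs, with 16.4% of all UMIs. Its Acta2 level was 18002 CPM. Not all matrix genes were low there, since Eln was at 339 CPM against 127 in the other deligated cells and Col1a1 at 58.3 against 56.7. Homeostatic sub-cluster 1 (48 cells, 23 and 25) held 80.3% of the Cnn1 UMIs with 37.8% of all UMIs, at 14781 CPM of Acta2. At the other end, deligated sub-cluster 6 (26 cells, 20 and 6), led by Gpx3, Ccl19, Mfap5 and Colec11, held 56.3% of the Col3a1, 50.3% of the Col1a1 and 59.7% of the Ccl11 UMIs with 6.498% of all UMIs. Sub-cluster 4 (59 cells, 28 and 31), with Lamc3 and Abcc9 among its leading genes, held a further 23.96% of the Col3a1 UMIs. The secretory gene Mucl2 ranked first there (4288 CPM), but only 32.2% of its cells held a Mucl2 UMI. Most of that level lay in a single cell, which held 92.3% of the Mucl2 UMIs of deligated 2. In the homeostatic glands sub-cluster 3 (27 cells, 13 and 14) held 68.3% of the Col3a1, 95.5% of the Ccl11 and 88.9% of the Kcnj8 UMIs. Deligated 6 and 4 and homeostatic 3 also carried pericyte genes, with Kcnj8 at 749.7, 419 and 357 CPM and Abcc9 at 794, 952 and 568, below the levels of pericytes, and Myocd at 9.93, 17.3 and 38.3. Their Acta2 levels were 3883, 3074 and 5243 CPM, the last close to the 5074 of homeostatic sub-cluster 4, which held no Ccl11 UMI. Deligated sub-cluster 3 (72 cells, 17 and 55), led by Atf3, the haemoglobin gene Hbb-bs, Rasd1 and Fos, held 41.9% of the Fos UMIs with 17.3% of all UMIs.

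**Figure D4:**
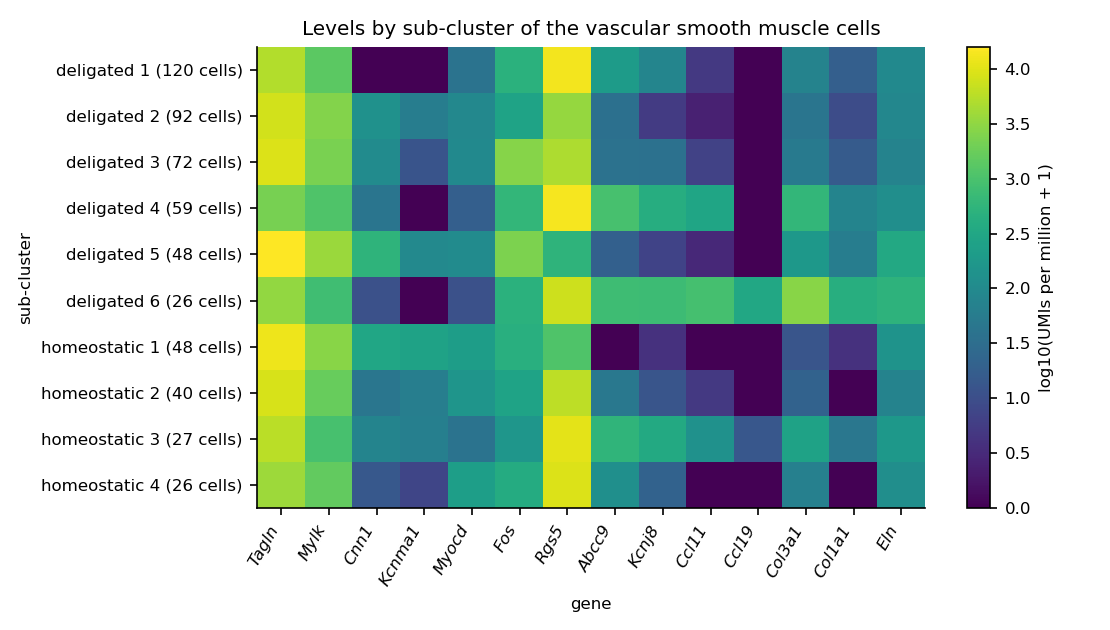
Level of 14 genes (log10 of CPM + 1) in the 6 deligated and 4 homeostatic sub-clusters, which were clustered separately. Cnn1 is highest in deligated 5 and homeostatic 1, whereas Ccl11 and Col3a1 are highest in deligated 6 and homeostatic 3.

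The response of smooth muscle cells was compared with that of pericytes in the same libraries by an interaction term in edgeR, in a fit with a term for each library. Of 7450 genes, 30 were called (0.403%), 19 with a higher effect in smooth muscle cells (0.255%) and 11 with a lower one (0.148%). On its own, the pericyte comparison called 452 of 4476 genes (10.1%), 104 higher (2.32%) and 348 lower (7.77%). Jun rose in smooth muscle cells, as given above, while in pericytes it was at 376 and 395 CPM in the deligated and 442 and 362 in the homeostatic libraries, with overlap (difference 1.55, SE 0.28, adjusted p 0.00132). Col3a1 in pericytes was at 843, 924, 450.5 and 532 CPM, and its effect was higher in smooth muscle cells (difference 1.31, SE 0.30, adjusted p 0.0281). Abcc9, at 2427, 2282, 2882 and 3203 in pericytes, also had a higher effect in smooth muscle cells (difference 1.11, SE 0.22, adjusted p 0.0049). The matrix protein Sparcl1 had a lower one (difference -0.84, SE 0.18, adjusted p 0.0147), at 3219, 2839.8, 2943 and 2648 CPM in smooth muscle cells and 2619.6, 2171, 1419.5 and 1224 in pericytes. Hes1 and Egr1, which passed in smooth muscle cells and not in pericytes, did not pass the interaction (adjusted p 0.36 and 0.246). Without deligated 1 the interaction called 1 gene and without homeostatic 2 it called 90, and after thinning it called none of 3618, with 245 at an unadjusted p under 0.05. Jun kept its call in 7 of 10 alternatives, Col3a1 in 4, and Abcc9 and Sparcl1 in 6 each. Without deligated 1 all 4 lost it, as did Abcc9 without homeostatic 2, Sparcl1 without deligated 2, Jun without homeostatic 1, and Col3a1 without either homeostatic library.

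**Figure D5:**
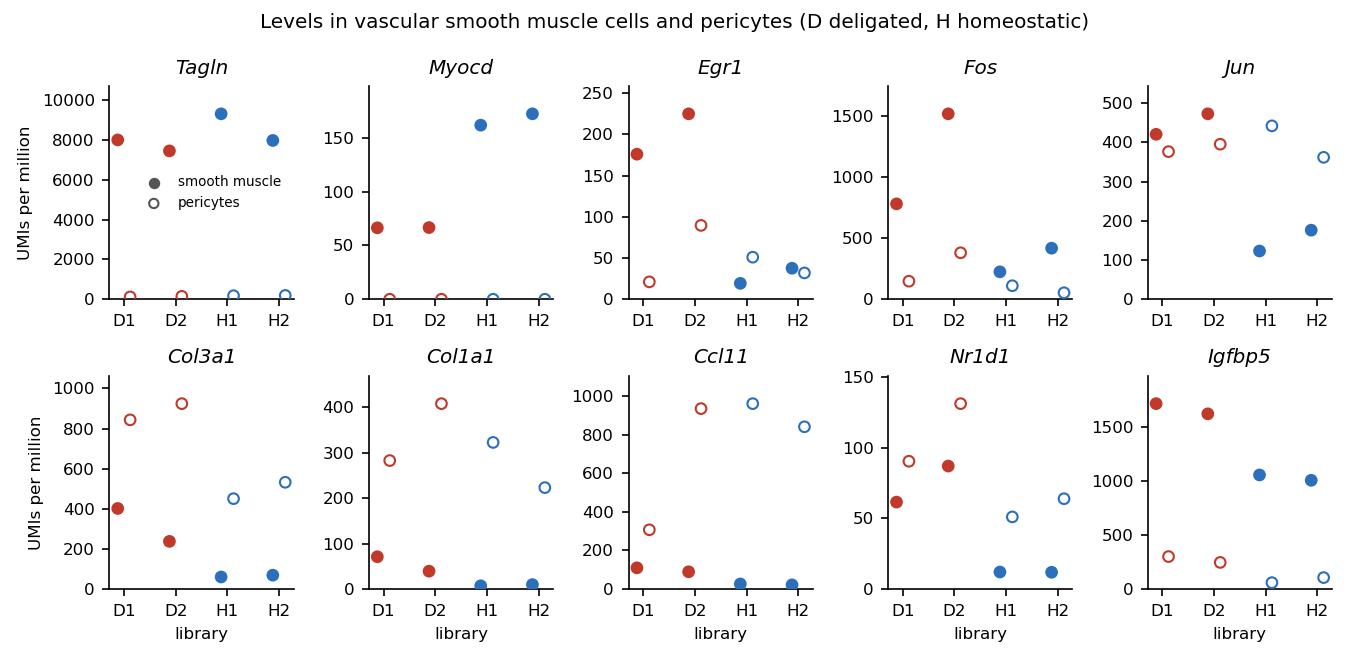
Level of 10 genes (CPM) in vascular smooth muscle cells (filled) and pericytes (open) of the 4 libraries, deligated 1 and 2 (D1, D2) and homeostatic 1 and 2 (H1, H2). Myocd has no UMI in pericytes of any library, Jun separates the groups in smooth muscle cells and not in pericytes, and Col3a1 is lower in smooth muscle cells than in pericytes of every library.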

How the data were processed

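Droplet single-cell RNA-seq (10x Genomics) was deposited as one matrix of UMI counts per library, per the file headers made by the authors with Cell Ranger 6.0.1 (deligated) and 7.0.0 (homeostatic). The submitters' processing notes name Cell Ranger 6.0.1, Seurat and mm10. Whether introns were counted and whether counting used strand is not given in the sources used here. The deposited counts held 35662241, 53898793, 53633980 and 52379402 UMIs over 4725, 8713, 12854 and 13266 barcodes in deligated 1, deligated 2, homeostatic 1 and homeostatic 2.

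Cells with at least 300 genes and at most 10% mitochondrial UMIs were used. Groups came from the labels. Pericytes had at least 2 Rgs5 and 1 Pdgfrb UMIs, at most 1 Myh11 and 4 Acta2 UMIs, and met the same exclusions as the smooth muscle cells. Counts were summed per library and tested with edgeR 4.0.16 (quasi-likelihood, TMM, filterByExpr, Benjamini-Hochberg over all genes tested, threshold 0.05); the standard error is the log2 fold change divided by the square root of F. The library was the replicate. Intron lengths came from GENCODE M21 on GRCm38 (31011 of 31053 identifiers, 99.9%), and a loess trend (span 0.5) was removed through offsets. Doublets were scored against simulated doublets (0.8% per 1000 cells) and left in, except in an alternative. Sub-clusters were made with scanpy 1.11.5 (1500 variable genes, 15 components, resolution 0.5). Exact zeros against a level were given as bounds with 3 UMIs over the group.

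The members and lists were chosen with earlier results of these data known. Named were the 10 largest rises and falls past the test with at most 10 kb of intron, the 3 largest of any length (all at 50 CPM or more in the higher group, without overlap), per list up to 6 called genes at that level and the 4 most abundant, and 5 interaction genes in each direction. Some genes that the rule names are not reported here. A few genes below that level are named to complete a count, and were chosen after their values were seen. DESeq2 1.42.0, other filters and thinning to 2000 UMIs, which left out shallower cells, were alternatives. The fits were tested on simulated sums with a spread set beforehand. The smooth muscle fit recovered 36.7% and 32.6% of genes changed by 1 and -1 on the log2 scale. For changes of 2 and -2 it recovered 100% and 89.1%. The interaction fit recovered 6.38% and 10.3%, and 30% and 43.6%, of the same changes. A gene that did not pass may therefore still have changed.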

Additional observations from a re-analysis of the deposited data

Results flagged for a closer look

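Of the 30 genes whose deligated to homeostatic difference was not the same in smooth muscle cells as in pericytes by edgeR's interaction test over 7450 genes, the 10 with the largest differences among those at 50 CPM or more in a group, 5 in each direction, are given here; values are CPM (UMIs of a gene per 1000000) in deligated 1, deligated 2, homeostatic 1 and homeostatic 2. The effect was higher in smooth muscle cells for 4 haemoglobin genes. Hba-a2 differed by 7.01 on the log2 scale (SE 1.33, adjusted p 0.00243), with 7.303, 1285, 7.24 and 5.94 in smooth muscle cells and 3.01, 21.8, 34 and 0 in pericytes. Hbb-bt, Hbb-bs and Hba-a1 differed by 6.72, 5.62 and 5.33 (edgeR adjusted p 0.00243, 0.000121 and 0.00243). All 4 are high in deligated 2 alone, where 3 cells held more than 10 haemoglobin UMIs, and none kept its call without that library where it could be tested.

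The secretory gene Scgb2b26 differed by 4.23 (adjusted p 0.0423), at 0.609, 55.7, 74.8 and 289 in smooth muscle cells and 0, 4.37, 425 and 117 in pericytes. It kept its call in 3 of 10 alternatives.

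In the other direction, Snrpb2, a splicing protein, differed by -3.55 (edgeR adjusted p 0.0147), at 46.9, 42.8, 60.3 and 39.6 against 90.3, 96.1, 8.50 and 10.6 in pericytes. Dmd differed by -1.59 (adjusted p 0.000371), at 259, 253, 1179.7 and 1274 against 169, 192, 272 and 351, and kept its call in 8 of 10 alternatives. Cdk8 differed by -1.48 (adjusted p 0.00196). Vim, vimentin, differed by -1.29 (adjusted p 0.00132), at 2036, 1557, 2027 and 1999 against 650.4, 577, 348 and 255. The ribosomal gene Rps3 differed by -1.04 (adjusted p 0.0155), at 963, 1103, 1242 and 1092 against 741, 795, 374 and 543. None of the 5 kept its call without deligated 1.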

How the results depend on the processing

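With 2 libraries per group and 65 and 76 homeostatic smooth muscle cells, the counts of calls moved with the test and the depth, while most named genes kept their direction. Of 616 calls (124 higher, 492 lower), DESeq2 gave 273 (47 and 226), thinning to 2000 UMIs per cell 220 (37 and 183), cells with at least 1000 UMIs and at most 5% mitochondrial UMIs 230 (58 and 172), the removed intron trend 336 (120 and 216), and no filter on low counts 825 (243 and 582). Leaving out 1 library gave 368 to 687 calls, 73 to 239 higher and 284 to 471 lower, with 368 (73 higher, 295 lower) without deligated 1, 404 (284 lower) without homeostatic 2 and 239 higher without deligated 2. Without cells holding a Kcnj8 or Abcc9 UMI, chosen after seeing the data, there were 356 (67 and 289). Without haemoglobin-rich or cycling cells, also chosen after seeing the data, the counts stayed within 1.5 times. Replicate numbers 1 and 2 recur in both groups, and the deviations of same-numbered libraries from their group means had a correlation of 0.024 over genes. With 2 libraries per group this is a single value and cannot exclude a shared batch. The main fit did not pair the libraries. The replicate block gave 664 calls (144 and 520) and kept all 80 calls followed gene by gene. Of these 80, DESeq2 kept 47 and lost 33. Calls over all lists, 55, became 32 in DESeq2, 26 with the stricter cell filter, 24 after thinning and 45 to 70 without 1 library. The interaction, 30 calls, gave 4 with the replicate block in place of the library term, 0 after thinning, 1 without deligated 1 and 90 without homeostatic 2. Signs turned for S100a4 (-0.30, stricter cell filter), Itga8 (0.30, the same, and 0.014 with the intron trend removed), Ltbp1 (0.21), Itpr1 (0.11), Pde3a (3.98e-05) and Ebf1 (0.62, all 4 with the trend removed), Cd74 (0.54, rule after thinning), and in the interaction for Hbb-bs (-0.23) and Hba-a1 (-0.44) without deligated 2 and Hba-a1 (-0.72) without haemoglobin-rich cells. Without any 1 library these ranged from -0.23 to 6.07 and from -0.44 to 5.64. Shares moved most with the stricter cell filter, to 1.24% and 1.002% against 0.193% and 0.169%. A stricter rule (4 Myh11 and 10 Acta2 UMIs) gave 2.27% in deligated 2. Among cells without epithelial or haemoglobin UMIs the share was 3.11% in deligated 2 and 0.771% and 0.891% in the homeostatic libraries. The rule after thinning gave 0.902% and 1.01% there and a ratio of 3.85. Fewer cells, genes or UMIs entered the thinned, stricter and left-out fits; the cause of the other moves was not tested.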

Other observations

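Some genes on none of the lists also moved in smooth muscle cells; they were chosen after their values were seen, and levels are CPM in deligated 1, deligated 2, homeostatic 1 and homeostatic 2. Kcnk3, the acid-sensitive potassium channel TASK-1 that sets the resting potential of arterial muscle, was at 137, 118, 57.9 and 71.2 (edgeR, log2 fold change of 0.92 with SE 0.23, adjusted p 0.0151), higher in both deligated libraries, and passed with the intron trend removed too (adjusted p 0.0267), but not without deligated 1 or homeostatic 1. Gas1, a co-receptor of hedgehog ligands, was at 104, 88.3, 38.6 and 37.6 and rose (log2 fold change of 1.29 with SE 0.26, adjusted p 0.00315). Tmsb10, an actin-sequestering thymosin, was at 234, 266, 113 and 101 (log2 fold change of 1.17 with SE 0.19, adjusted p 0.000361), and pericytes had 518, 509, 221 and 213.

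Tcf15, a transcription factor of paraxial mesoderm, was at 203, 270.3, 321 and 388 and fell (edgeR, log2 fold change of -0.64 with SE 0.18, adjusted p 0.0356). Ackr3, a scavenging receptor of the chemokine Cxcl12, was at 53.6, 111, 128 and 168 (log2 fold change of -0.92 with SE 0.27, adjusted p 0.0408). Apoe, the lipid carrier, was at 66.3, 109, 123 and 297 (log2 fold change of -1.35 with SE 0.29, adjusted p 0.00532), highest in homeostatic 2. Without the cells that held a Kcnj8 or Abcc9 UMI, Kcnk3, Gas1, Tmsb10, Tcf15 and Ackr3 did not pass (adjusted p 0.21, 0.5, 0.137, 0.259 and 0.187). In DESeq2 the calls of Kcnk3, Gas1, Tcf15 and Ackr3 were lost, and after thinning those of Kcnk3, Gas1, Tmsb10, Ackr3 and Apoe. Tcf15, Ackr3 and Apoe lost their calls without deligated 1 and without homeostatic 2, and Apoe also in cells without UMIs of the epithelial genes Epcam, Krt8 and Krt18 (adjusted p 0.115). Cabp1, a calcium-binding protein that regulates channels, was at 48.1, 70.6, 299 and 293, with the groups far apart (edgeR, log2 fold change of -2.38 with SE 0.20, adjusted p 1.38e-07), and pericytes had 6.02, 6.55, 8.50 and 63.8.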
